A study of Caenorhabditis elegans with 7 samples.

Results

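The genes unc-25, unc-47 and unc-46 encode the steps that make the transmitter GABA and load it into synaptic vesicles. In the nematode Caenorhabditis elegans, unc-25 encodes glutamic acid decarboxylase, the enzyme that makes GABA from glutamate. The gene unc-47 encodes the vesicular GABA transporter, which moves GABA into the vesicle in exchange for protons. The gene unc-46 encodes a LAMP-like membrane protein that directs this transporter to synaptic vesicles. All 3 are used by GABA neurons as a class, and worms that lack any of them have defects in GABA transmission.

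The members were all probe sets whose gene name, in the authors' deposited table, was unc-25, unc-47 or unc-46. This gave 4 probe sets, 1 each for unc-25 (194006_at, gene sequence name Y37D8A.23) and unc-47 (188550_at, T20G5.6) and 2 for unc-46 (175506_s_at and 183262_at, C04F5.3), out of 22548 tested. That table names probe sets only where the authors had listed them as higher in DD neurons on these same arrays. It covers 222 named probe sets for 201 genes. The direction of every member was therefore fixed by the listing and is not independent evidence, and a probe set of these genes that was not listed could not be named. Every named probe set also had a log2 difference, DD neurons minus all cells, of about 1 or more. Differences and medians of named genes are thus bounded from below.

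Levels were measured on Affymetrix arrays in 2 groups of growth-arrested first-stage (L1) larvae, which had hatched in buffer without food. The 4 arrays of DD neurons came from strain CZ8332, which carries the insertion juIs223 with mCherry under the ttr-39 promoter and GFP under the ttx-3 promoter, and from which mCherry-labelled cells were isolated by fluorescence-activated cell sorting. DD neurons are inhibitory motor neurons in the ventral nerve cord that release GABA onto body muscle. The 3 arrays of all cells came from the wild-type strain N2 at the same stage, with no reporter. Strain, sort and cell type thus changed together and cannot be told apart, and 1 characteristics label of the DD samples gives GFP, where the series design gives mCherry as the sorted label. In both groups RNA was amplified from nanogram amounts with a NuGEN kit for small inputs. Whether the replicates were grown separately is not stated in the sources used here, and the p-values then reflect only the variation among these arrays, which may be technical.

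The values are levels on the log2 scale made with RMA, which removes background, scales the arrays to each other and condenses each probe set's probes to 1 value. A difference of 1 is a 2-fold difference. Array medians lay between 5.21 and 5.30 in DD neurons and between 5.33 and 5.38 in all cells. The correlation across probe sets ranged from 0.957 to 0.974 for pairs of DD arrays, from 0.966 to 0.974 for pairs of all-cell arrays and from 0.936 to 0.971 for mixed pairs. No detection call or background level came with the values. Because probes bind with different strength, levels are compared for 1 probe set across arrays and not between genes.

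The 3 genes were higher in DD neurons than in all cells by every one of their probe sets, by 5.79-fold to 13.3-fold. All 4 probe sets passed the test at an adjusted p under 0.05 (limma across all probe sets, Benjamini-Hochberg adjustment), where 0.191% of the tested probe sets, or 43, were called higher. Since members could come only from the 222 named probe sets, the nearer base is the 19.4% of these that were called higher. The groups did not overlap in any of the 4, with the DD arrays on top, and 6.98% of the tested and 95% of the named probe sets were separated in this way. Their median log2 difference was 2.99, against 0.06 over all tested probe sets and 1.26 over the 222 named ones.

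For the decarboxylase gene unc-25, DD replicates 1 to 4 read 11.39, 10.84, 11.46 and 11.46 (log2), and all-cell replicates 1 to 3 read 7.94, 8.23 and 8.52. The DD arrays other than replicate 2 were nearly equal, and replicate 2 was the low one. The groups did not overlap, with 2.32 between the lowest DD array and the highest all-cell array. The mean over DD neurons was 11.29 ± 0.30 (SD, n = 4), and that over all cells 8.23 ± 0.29 (SD, n = 3). The log2 difference was 3.06 ± 0.22 (SE, 95% interval 2.54 to 3.57), an 8.32-fold difference with a limma adjusted p of 0.00544. Among all probe sets this was the 13th largest difference, and by p-value it stood 2nd among those higher in DD neurons. On the DD arrays unc-25 ranked between percentiles 97.5 and 98.6 of the tested probe sets, and on the all-cell arrays between percentiles 83.2 and 88.1. In both groups, then, this probe set lay well above the array median.

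For the transporter gene unc-47, DD replicates 1 to 4 read 7.39, 6.92, 7.23 and 7.26, and all-cell replicates 1 to 3 read 4.57, 5.11 and 4.32. Again DD replicate 2 was the lowest of its group, and the groups did not overlap, with a gap of 1.81. The DD mean was 7.20 ± 0.20 (SD, n = 4), and the all-cell mean 4.67 ± 0.41 (SD, n = 3). The log2 difference was 2.53 ± 0.23 (SE, 95% interval 2.01 to 3.05), or 5.79-fold, with a limma adjusted p of 0.00937. It was the smallest difference of the 4 probe sets, the 20th largest of all tested. The probe set lay between percentiles 71.9 and 79.0 on the DD arrays. On the all-cell arrays it lay between percentiles 35.4 and 47, under each array's median. Whether it was detected there is unknown, which makes the fold uncertain.

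The gene unc-46, whose product sorts the transporter, was measured by 2 listed probe sets. By 183262_at, DD replicates 1 to 4 read 9.17, 8.65, 8.90 and 9.76, and all-cell replicates 1 to 3 read 6.01, 6.35 and 6.25. DD replicate 4 was the highest and replicate 2 the lowest of the DD arrays, while the all-cell arrays lay within 0.35 of each other. The DD mean was 9.12 ± 0.48 (SD, n = 4), and the all-cell mean 6.20 ± 0.18 (SD, n = 3). The log2 difference was 2.92 ± 0.27 (SE, 95% interval 2.30 to 3.53), or 7.54-fold, with a limma adjusted p of 0.00937. This probe set lay above the array median in both groups, between percentiles 88.9 and 94.6 on DD arrays and between percentiles 59.6 and 63.3 on all-cell arrays.

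By the probe set 175506_s_at, DD replicates 1 to 4 read 8.25, 8.09, 7.17 and 8.08, and all-cell replicates 1 to 3 read 3.69, 4.17 and 4.64. Here DD replicate 3, and not replicate 2, was the low array, and the other 3 were within 0.18 of each other. The ending of its name marks a probe set that can match more than 1 transcript. The DD mean was 7.90 ± 0.49 (SD, n = 4), and the all-cell mean 4.17 ± 0.47 (SD, n = 3). The log2 difference of 3.73 ± 0.32 (SE, 95% interval 3.00 to 4.47) was the largest of the 4 and the 5th largest of all probe sets, at 13.3-fold with a limma adjusted p of 0.00937. All-cell levels lay between percentiles 25.6 and 40, so this fold is uncertain for the same reason. Both probe sets of unc-46 had DD arrays apart from all-cell arrays, by 2.53 for 175506_s_at and by 2.29 for 183262_at.

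**Figure D1:**
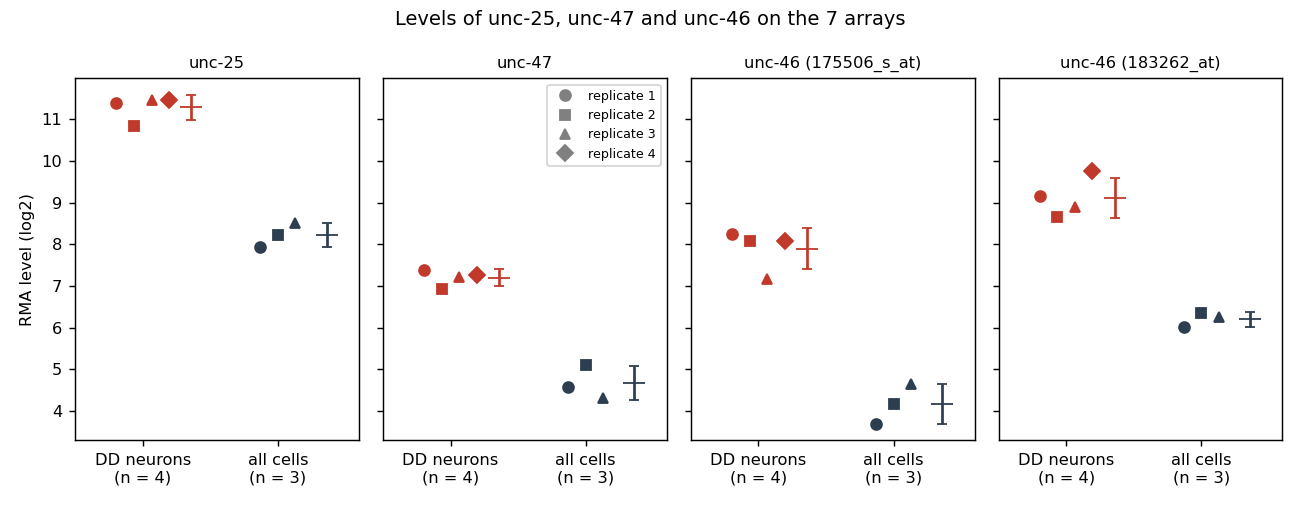
RMA level (log2, y axis) of the 4 probe sets of unc-25, unc-47 and unc-46 on each array, with marker shapes for the replicate number and the mean ± SD of the group to the right of its points (DD neurons n = 4, all cells n = 3). Every DD array lies above every all-cell array in all 4 panels, by 1.81 (unc-47) to 2.53 (unc-46, 175506_s_at).

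A difference between sorted cells and all cells is one of concentration. From such bulk values a larger share of GABA neurons in the sample and more RNA of these genes per neuron cannot be told apart. Samples labelled as all cells should contain DD neurons and the other GABA neurons too, though the labels do not name these. The fold over all cells describes how much more of the amplified RNA came from a gene in the sorted sample, and not a level per cell.

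**Figure D2:**
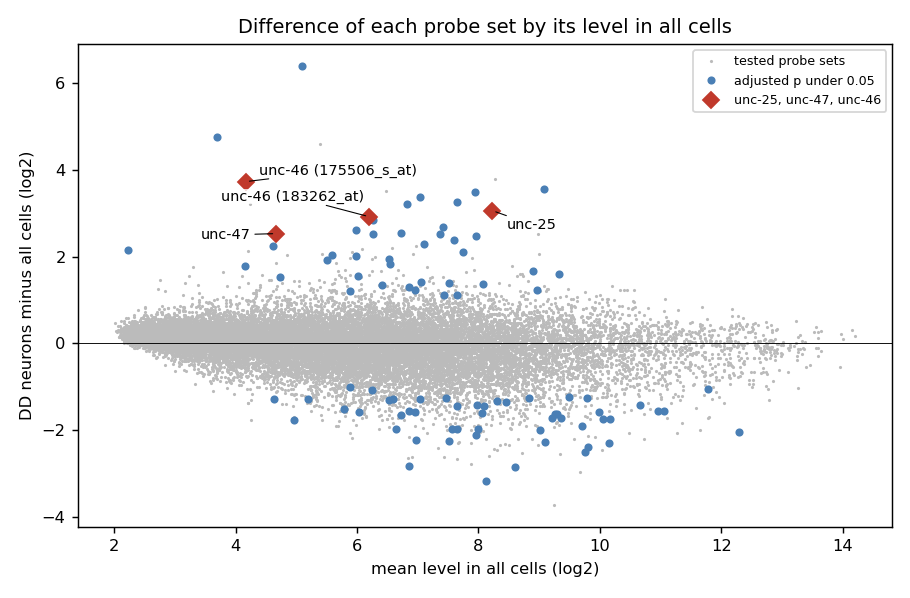
Log2 difference, DD neurons minus all cells (y axis), of the 22548 tested probe sets against their mean log2 level in all cells (x axis). Probe sets at an adjusted p under 0.05 are blue, and the 4 member probe sets are red diamonds: unc-25 lies to the right at an all-cell level of 8.23, while unc-47 (4.67) and unc-46 by 175506_s_at (4.17) lie on the dim side.

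Next, the members were set against each other, by the difference between 2 probe sets within each array. A probe set's own binding strength and any shift of a whole array cancel when this difference is compared between groups. All 6 pairs were compared by an exact two-sided permutation test over the 35 assignments of the arrays, whose smallest possible p is 0.0286. After adjustment over the 6 pairs, a single pair at that smallest p could not have passed alone, so the test could hardly single out a pair. No pair passed, with adjusted p of 0.257 to 0.571 over the 6 pairs, and the groups overlapped in all 6. That does not show that the genes differ from all cells by the same factor.

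Over all 7 arrays the pair with the smallest gap was unc-25 and unc-46 by 183262_at. The log2 difference between DD neurons and all cells was larger for unc-25 by 0.14 ± 0.23 (SE, exact permutation p = 0.571, adjusted 0.571), and by 0.01 without DD replicate 3 and 0.30 without DD replicate 4. Without all-cell replicate 1, 2 or 3 it was larger by 0.09, 0.07 or 0.26. Within arrays, unc-25 read 2.22, 2.20, 2.55 and 1.70 above unc-46 in DD neurons and 1.93, 1.88 and 2.27 above it in all cells. The lowest and the highest of these 7 values both came from DD arrays, replicates 4 and 3.

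Between the enzyme and the transporter, unc-25 exceeded unc-47 by 4.00, 3.92, 4.23 and 4.20 in DD neurons, against 3.37, 3.12 and 4.20 in all cells. The unc-25 difference was larger by 0.52 ± 0.29 (SE, exact permutation p = 0.143, adjusted 0.257), by 0.30 without all-cell replicate 2 and by 0.84 without all-cell replicate 3. All-cell replicate 3, where unc-47 was lowest and unc-25 highest of the group, lay among the DD arrays. For the sorting gene and the transporter, unc-46 by 183262_at exceeded unc-47 by 1.78, 1.73, 1.68 and 2.50 in DD neurons and by 1.44, 1.24 and 1.94 in all cells, and its difference was larger by 0.38 ± 0.29 (SE, exact permutation p = 0.257, adjusted 0.309). That gap was 0.19 without DD replicate 4, 0.23 without all-cell replicate 2 and 0.58 without all-cell replicate 3.

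The other unc-46 probe set gave the widest gaps. By 175506_s_at the difference was larger than that of unc-47 by 1.2 ± 0.46 (SE, exact permutation p = 0.0857, adjusted 0.257), with within-array values of 0.87, 1.17, -0.05 and 0.82 in DD neurons and -0.88, -0.95 and 0.32 in all cells. It was larger than that of unc-25 by 0.68 ± 0.40 (SE, exact permutation p = 0.171, adjusted 0.257). It was also larger than that of 183262_at, the same gene, by 0.82 ± 0.39 (SE, exact permutation p = 0.171, adjusted 0.257). The gap between both probe sets of unc-46 lay inside the range of the gaps between different genes, 0.14 to 1.2.

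**Figure D3:**
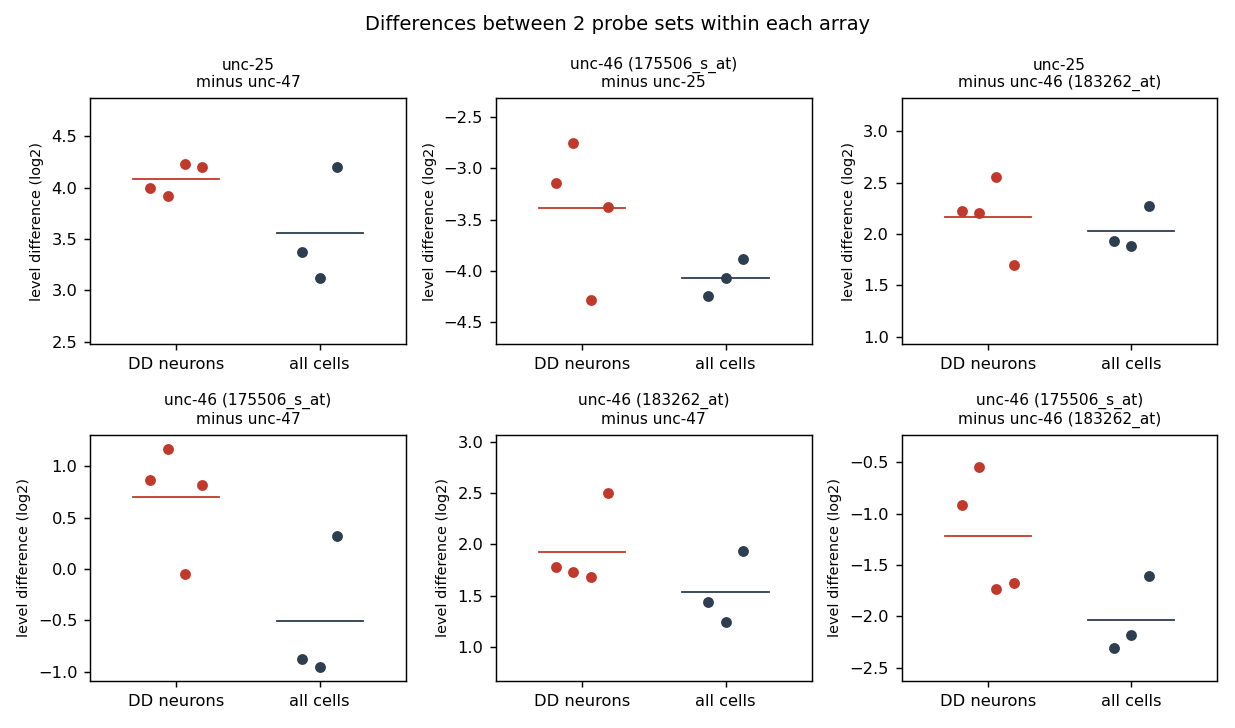
Log2 level of 1 probe set minus that of another on the same array (y axis, all panels span the same number of log2 units), for the 6 pairs of member probe sets, with DD neurons left and all cells right. Points are arrays and lines are group means. The groups overlap in every panel, and the widest gap between means, 1.2, is that of unc-46 (175506_s_at) minus unc-47.

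Across arrays of 1 group the members did not share a single order. Among the DD arrays, replicate 2 was the lowest for unc-25 (0.44 below the group mean), unc-47 (0.28 below) and unc-46 by 183262_at (0.47 below). By 175506_s_at that array was 0.19 above the group mean. Among the all-cell arrays, replicate 1 was the lowest for unc-25 and for both unc-46 probe sets, while unc-47 was lowest in replicate 3. The pooled SD within groups was 0.29 for unc-25, 0.30 for unc-47, 0.39 for 183262_at and 0.48 for 175506_s_at. All of these are small beside the differences of 2.53 to 3.73 between the groups.

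The named genes most like the members were found by the root mean square distance of their array values from the mean of the 3 genes, after each gene was centred on the mean of its 2 group means, over the 7 arrays. By this distance the members themselves stood at 0.17 (unc-25), 0.26 (unc-46) and 0.30 (unc-47) log2 units. The nearest other genes were Y64G10A.7 at 0.26, unc-30 at 0.26, oig-1 at 0.27, ilys-4 at 0.29 and C13A10.2, now nssp-12, at 0.37. The homeodomain transcription factor UNC-30 is known in this worm to specify the D-type fate and to bind the promoters of unc-25 and unc-47. The gene oig-1 encodes a small protein with an immunoglobulin domain. Their log2 differences were 2.53 (Y64G10A.7), 3.22 (unc-30), 2.51 (oig-1), 2.68 (ilys-4) and 3.26 (C13A10.2). The distance over 7 arrays is governed by the size of the group difference, so it lists genes with a difference near that of the members and says little about the order of arrays within a group.

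**Figure D4:**
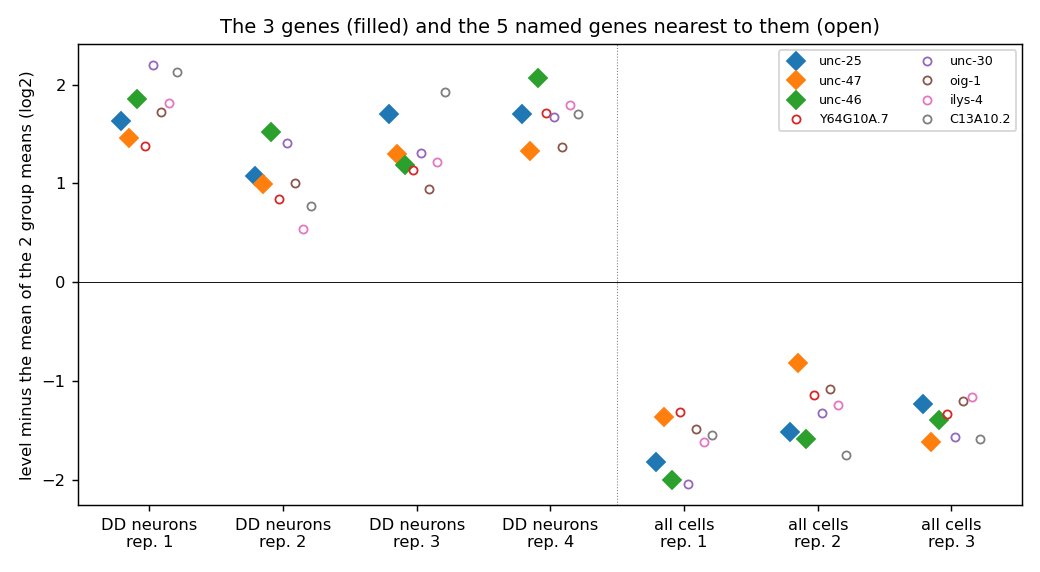
Log2 level minus the mean of the gene's 2 group means (y axis) on each array (x axis), for unc-25, unc-47 and unc-46 (filled diamonds, unc-46 as the mean of its 2 probe sets) and the 5 named genes nearest to them (open circles). Values of unc-30 are likewise the mean of its 2 named probe sets. All 8 genes lie above 0 on the 4 DD arrays and below 0 on the 3 all-cell arrays. On DD replicate 2 Y64G10A.7, ilys-4 and C13A10.2 lie below the members, and on DD replicate 1 unc-30 and C13A10.2 lie above them.

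Other genes of GABA use and of vesicle loading were taken from lists. Of 21 further genes of GABA metabolism, uptake, reception and synapses, among them the GABA uptake transporter gene snf-11, the GABA transaminase gene gta-1 and the receptor gene unc-49, 0 had a named probe set, so their levels are not analysed here. Of 16 genes for the synthesis, vesicle loading and uptake of other transmitters, such as the acetylcholine loading gene unc-17 and the glutamate loading gene eat-4, 0 could be named either. The GABA genes were therefore not set against those of other transmitters.

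For the machinery that energizes and builds vesicles, 3 of 34 listed genes could be named. By limma, 0 of 3 passed over all probe sets, and 3 of 3 had an unadjusted p under 0.05, in a table whose genes were all selected by the authors as higher. The gene unc-32 encodes a subunit of the V-type proton pump, whose gradient drives GABA loading. It read 7.87 to 8.76 in DD neurons and 6.79 to 7.73 in all cells, a log2 difference of 1.05 ± 0.31 (SE, limma adjusted p = 0.194). The synaptogyrin gene sng-1 had a log2 difference of 1.15 (adjusted p = 0.130). The clathrin adaptor gene unc-11, whose product recovers vesicle proteins, had 1.28 (adjusted p = 0.126). Their median, 1.15, is near that of all named probe sets, 1.26, but every named probe set had about 1 or more. The 4 member probe sets, at 2.53 to 3.73, lie above the values of all 3 genes. None of these gaps was tested.

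The label of the sorted cells could not be tested against D-type genes, because any gene named here had been listed as higher in DD neurons on these arrays. Of 9 markers of DD and other D-type neurons 7 could be named and 6 of 7 were called higher, against 19.4% of the named probe sets, and 3 of these were the members. Beside them stood ttr-39, the source of the promoter in the sorted reporter, at a log2 difference of 3.48 ± 0.26 (SE, limma adjusted p = 0.00544), unc-30 and oig-1. The homeobox gene alr-1 had 1.51 (adjusted p = 0.0876). The T-box gene mab-9, on a list of D-type regulators, had 1.85 (adjusted p = 0.111). A marker that was absent or lower could not have been seen.

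Of 18 genes used by neurons in general, 8 could be named, and their median log2 difference was 1.03. Every named probe set had about 1 or more, so this median lies near the lowest value a named gene showed. It does not describe the 10 genes that could not be named. All 8 were higher on every DD array than on any all-cell array, as were 95% of the named probe sets. The active zone gene unc-10 alone was called, at a log2 difference of 6.40 ± 0.24 (SE, limma adjusted p = 8.47e-05). Its all-cell mean, 5.1, lay under the all-cell array medians of 5.33 to 5.38. Whether it was detected there is unknown, which makes its difference uncertain. Of the named probe sets 19.4% were called higher.

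The 9 lists for other cells, which held 76 genes, gave 5 named genes. The lists were other GABA neurons, cholinergic motor neurons, AIY, muscle, intestine, epidermis, pharynx, germline and glia. No gene of other GABA neurons, cholinergic motor neurons, AIY or glia could be named. The 5 named genes had a mean level per array of 7.61 to 8.08 in DD neurons and 6.43 to 6.66 in all cells. One of them, pqn-44, placed on the pharynx list, passed the test (log2 difference 1.23 ± 0.18 SE, limma adjusted p = 0.0377), where 19.4% of the named probe sets were called. The muscle gene ttn-1, which encodes a titin, had 3 named probe sets, with log2 differences of 1.18, 1.94 and 2.11 (adjusted p of 0.134, 0.158 and 0.155). The others were acdh-1 of intestine (1.86, adjusted p = 0.189), ptr-24 of epidermis (1.03, adjusted p = 0.0973) and pgl-1 of the germline (1.07, adjusted p = 0.224). For acdh-1 and pgl-1 the DD and all-cell arrays overlapped. As every named probe set had a log2 difference of about 1 or more, genes of these lists with smaller or negative differences could not be seen. The part of the 5 named genes, and of the general neuronal genes, in the values of unc-25, unc-47 and unc-46 was not tested.

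The calls of 2 of the 3 genes were lost when DD replicate 1 was left out. That array had the lowest quality weight by limma, 0.477 against 0.936 to 1.46 for the others, and the highest mean level of array controls, 6.02 against 5.71 to 5.88 on the other DD arrays and 5.39 to 5.56 on the all-cell arrays. Without it unc-47 (2.47 ± 0.24 SE) and both unc-46 probe sets (3.61 ± 0.35 and 2.90 ± 0.30) had an adjusted p of 0.0547 by limma, while unc-25 kept its call at 3.02 ± 0.24 (adjusted p = 0.047). Over all probe sets the number called higher was then 6, against 43 with all arrays. The log2 differences of the members themselves moved by at most 0.12. With any other single array left out all 4 probe sets were called. A fit with array quality weights also called all 4 (limma adjusted p of 0.00695 to 0.00844). A fit with the replicate number as a block called none of the 4, unc-25 included (limma adjusted p of 0.114 each).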

How the data were processed

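The authors deposited log2 values, 1 per probe set and array, made with RMA per the submitters' processing notes. Software, version, probe set definition and genome build are not given in the sources used here. Gene names were read from the authors' deposited table of 236 probe sets listed as higher in DD neurons, of which 222 carry a name, and no score or fold of that table was used. Names were looked up in RefSeq's table for assembly WBcel235, whose coordinates are not given because the array's build is unknown. The members, lists, tests and the rule for named genes were chosen with earlier results of these data known.

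After 77 array controls were left out, 22548 probe sets on all 7 arrays entered limma 3.58.1 (lmFit, then eBayes, in R 4.3.3) with no covariate and 5 residual and 3.13 prior degrees of freedom. A call is a two-sided Benjamini-Hochberg adjusted p under 0.05. The rule named all member probe sets, the listed genes by 1 probe set each, and the 5 nearest genes. Pairs of members were compared by exact permutation of the arrays. The code was tested on simulated data. The number of arrays limits the precision. Alternatives were a replicate block, other centring and normalization, a filter on dim probe sets, array controls kept, an intensity trend, array weights and each array left out.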

Additional observations from a re-analysis of the deposited data

Results flagged for a closer look

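For each of the 4 member probe sets, the gap between the most extreme DD array and its neighbour was taken as a share of the range of the 4 DD arrays. Chance alone marks about 1 in 20 such groups. For unc-25, DD replicate 2 read 10.84 and the nearest other DD array 11.39, a gap of 0.893 of the range. Without that array the log2 difference of unc-25 was 3.20 ± 0.20 (SE). For unc-46 by 175506_s_at, DD replicate 3 read 7.17 and the nearest other DD array 8.08, a gap of 0.836 of the range, just past the limit used. Without that array its log2 difference was 3.97 ± 0.26 (SE). The second probe set of unc-46 did not single out DD replicate 3, which read 8.90 there, within the range of the group.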

How the results depend on the processing

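All 4 member probe sets stayed higher in DD neurons under the 15 alternatives. As they were listed as higher on these same arrays, this direction is not independent evidence. The filter on dim probe sets was set at a mean level of 5.34. The all-cell means of unc-47 (4.67) and 175506_s_at (4.17) lay under it, so these 2 passed through their DD arrays. There was little sign that replicate numbers pair the arrays: deviations of same-numbered arrays correlated at -0.00511, 0.0703 and 0.0864, and not every array correlated best with its own number. With so few arrays this check cannot exclude a shared batch. With the replicate block the differences were 3.00 (unc-25), 2.51 (unc-47), 3.67 (unc-46, 175506_s_at) and 2.70 (unc-46, 183262_at), each at an adjusted p of 0.114, and 2 probe sets were called higher and 0 lower (limma, 2075 lower at an unadjusted p under 0.05). That fit spends degrees of freedom on the blocks. DD replicate 4 has no all-cell array of its number, so it adds nothing to these differences, which equal those without that array. With each array left out in turn the differences ranged from 2.91 to 3.20 for unc-25, 2.36 to 2.76 for unc-47, 3.49 to 3.97 for 175506_s_at and 2.70 to 3.07 for 183262_at, and the counts from 6 to 23 higher and 0 to 39 lower (0 without DD neurons replicate 1, with 1779 at an unadjusted p under 0.05). Lower calls, 51 in the fit as reported, were 28 with arrays centred on their medians, 33 with quantile normalization and 393 with arrays centred on the array controls, and 65 higher and 93 lower were called with dim probe sets left out, where 11274 were tested. Centring on the controls, which were higher in DD neurons, gave the smallest differences, at 2.70, 2.18, 3.38 and 2.56 for unc-25, unc-47, 175506_s_at and 183262_at, all called. Centring on medians gave 3.14, 2.61, 3.81 and 3.00. For the pairs of members the size depended on single arrays, though the sign held in 54 of 54 recomputed values. With each array left out in turn, unc-25 minus 183262_at ranged from 0.01 to 0.30, unc-25 minus unc-47 from 0.30 to 0.84 and 183262_at minus unc-47 from 0.19 to 0.58. For 175506_s_at the gap ranged from 0.46 to 0.98 over unc-25, from 0.60 to 1.03 over 183262_at and from 0.98 to 1.61 over unc-47. Causes of these changes were not tested. With no background level, the folds of unc-47 and 175506_s_at are limited by their dim all-cell values.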
